A study of Mus musculus with 12 samples.

Results

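Hearts labelled HDAC3 KO were set against WT hearts of the same experiment, with 3 libraries of total RNA in each group. HDAC3 is a class I histone deacetylase, and KO means that its gene was knocked out. Every gene with at least 1 FPKM (fragments per unit of transcript length, scaled to the library's total of mapped fragments) in at least 3 of the 6 libraries was followed, which gave 11810 of the 17043 genes kept from the deposited table. The whole series holds 12 libraries. The other 6 are 3 of NS-DADm hearts, whose HDAC3 the labels call inactive, and 3 of WT hearts of that second experiment. The purpose named for the series is to separate functions of HDAC3 in the adult heart that need its enzyme activity from those that do not. Genotype and tissue are given in the labels. The sources used here do not give the strain, the exact age, the sex, the promoter or cell type behind the knockout, or the animal behind each library. The labels call the libraries of each group biological replicates. The p-values below rest on how far these libraries spread, and how much of that spread is technical is not known.

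HDAC3 removes acetyl groups from histone tails and works inside corepressor complexes built on NCOR proteins, whose deacetylase-activating domain binds HDAC3 and switches on its activity. Nuclear receptors such as the Rev-erb proteins bring these complexes to DNA, and genes nearby are held down. In heart muscle HDAC3 is known for its part in the control of fuel use, and part of its function does not depend on the enzyme activity.

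The groups differed in genes of the sex chromosomes. Ddx3y, an RNA helicase encoded on the Y chromosome, was measured at 21.43, 21.48 and 22.13 FPKM in KO hearts and was listed at 0 in all 3 WT libraries. Eif2s3y, a Y-linked subunit of a translation initiation factor, was at 46.69, 45.8 and 48.46 FPKM in KO hearts and at 0.11 FPKM in each WT library. Its X-linked partner Eif2s3x was at 45.63, 44.57 and 45.64 FPKM in KO hearts, against 68.94, 68.19 and 69.53 FPKM in WT hearts. Uty and Kdm5d had the same pattern as Ddx3y, and Zfy1 was listed at 0 in all 6 libraries. Each KO library thus held Y-linked RNA and each WT library held almost none, so in these data sex and genotype cannot be told apart, and this applies to every difference below.

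Library totals lay between 605736.6 and 613113.5 FPKM in KO hearts and between 639747.3 and 650460.5 FPKM in WT hearts. Between 11665 and 11679 genes reached 1 FPKM in a KO library, against 11320 to 11367 in a WT library. The 10 most abundant genes held 14.53% to 14.77% of all FPKM in KO hearts and 15.79% to 16.35% in WT hearts. Low FPKM values rise in steps of single fragments, and these steps put the depth of KO libraries 2 and 3 at 1.06 and 1.04 times that of KO library 1, and that of the WT libraries at 0.87 to 0.89 times. The absolute depth is not given by the values. Libraries of a group correlated at 0.9963 to 0.9972 and libraries of different groups at 0.9408 to 0.9413 (log2 values, across genes). The median coefficient of variation of a gene was 5.03% in KO hearts and 6.01% in WT hearts.

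The targeted gene, Hdac3, lies on chromosome 18 (37936971 to 37955015, GRCm38.p6). Its RNA stood at 8.51, 7.31 and 7.88 FPKM in KO hearts, against 27.83, 29.45 and 27.12 FPKM in WT hearts. All 3 KO libraries lay below all 3 WT libraries, and Hdac3 RNA was lower but not absent in the KO hearts. The fitted log2 difference was -1.71 ± 0.0624 (SE, limma adjusted p = 2.37e-09). In the authors' deposited table Hdac3 carries a signed fold change of -3.753 with a q-value of 1.26e-66. Which exons the remaining fragments came from was not analysed here.

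KO hearts differed broadly from WT hearts in their RNA. In bulk tissue, fewer cells of a type and less RNA per cell cannot be told apart. Of the 11810 genes, 7775 (65.8%) were called, meaning that the limma adjusted p was under 0.05. Of these, 4515 (38.2% of all genes tested) were higher and 3260 (27.6%) were lower in KO hearts. The differences were mostly small, since 4353 of the called genes differed by less than 0.5 on the log2 scale, and the median standard error was 0.0698. A fitted difference of at least 2-fold, here a log2 difference of at least 1 on the log2(FPKM + 1) scale, was reached by 1198 called genes (10.1%), 814 of them higher (6.89%) and 384 lower (3.25%). The values of the 3 KO libraries did not overlap those of the 3 WT libraries in 8248 genes (69.8%), with the KO libraries above in 4750 (40.2%) and below in 3498 (29.6%).

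**Figure D1:**
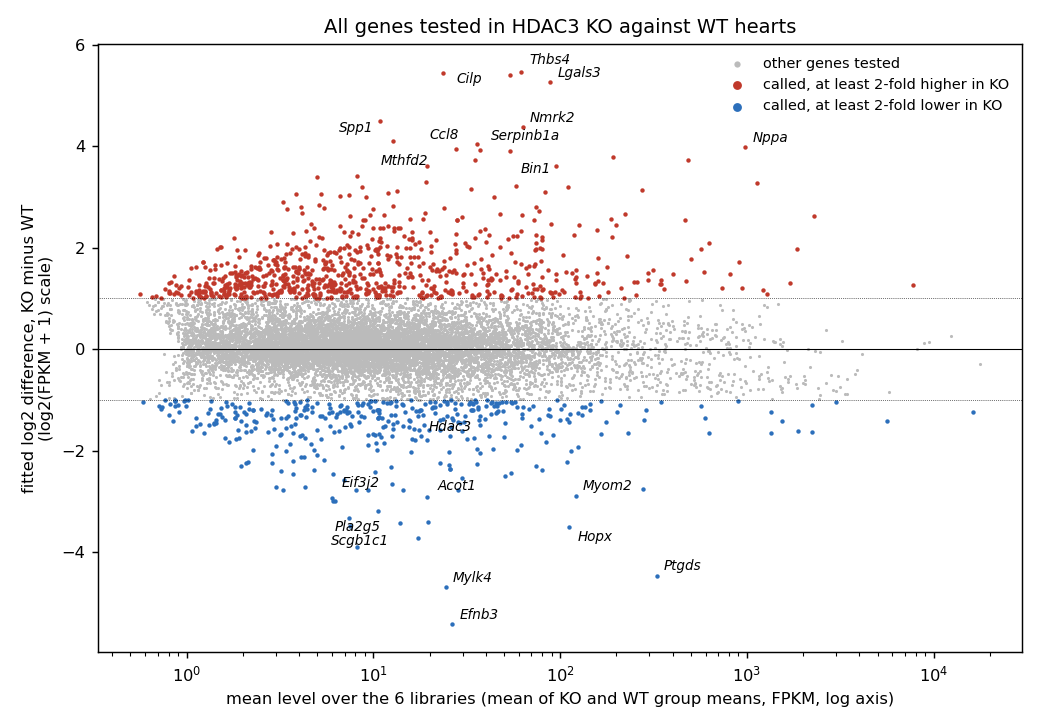
Fitted log2 difference, KO minus WT, of each of the 11810 genes (vertical axis) against the mean of the KO and WT group means in FPKM (horizontal log axis). Red points are the 814 genes called and at least 2-fold higher in KO hearts, blue points are the 384 called and at least 2-fold lower, and grey points are the rest. Dotted lines mark log2 differences of 1 and -1, and the labelled genes are Hdac3 and 19 of the 20 leading genes.

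The large rises outnumbered the large falls at each size. A rise of log2 2 to 3 was seen in 109 genes and a fall of that size in 46, and a rise of 3 to 4 was seen in 26 genes and a fall in 8. At 4 and above there were 8 rises and 3 falls. Genes that were at least 2-fold higher held between 11.37% and 11.56% of all FPKM in KO hearts, against 3.35% to 3.43% in WT hearts. Genes that were at least 2-fold lower held between 4.46% and 4.49% in KO hearts, against 10.59% to 10.96% in WT hearts. The excess of rises depended on how the libraries were scaled. Higher genes made up 58.1% of all calls as deposited, 49.3% after TMM scaling and 46.7% after each library was centred on its median. At least 2-fold there were 706 higher and 472 lower after median centring and 739 higher and 457 lower under TMM scaling. The 814 rises and 384 falls were all still called in the same direction under both scalings. Median centring and TMM scaling moved the median of all genes by only -0.087 and -0.066 on the log2 scale. Shifts of that size could hardly undo a 2-fold call. In 372 genes only the KO libraries lifted the gene into the test, which fixes its direction, and 370 of these were called higher. Another 160 were tested only through the WT libraries, and 158 of these were called lower. Gene length moved with the changes. Among genes with transcripts of 216 to 2203 bases, the shortest of 4 equal groups, 10.7% rose at least 2-fold and 4.46% fell, against 3.96% and 2.8% in the group with the longest transcripts, and the part of length in the results was not tested.

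The leading genes were the 10 largest rises and the 10 largest falls among called genes whose KO or WT mean reached 20 FPKM, with Y-linked genes and predicted genes left out. The rule also asked for KO and WT libraries that did not overlap, so the lack of overlap in these genes was fixed by the choice. Their promoters show where these changes lie in the genome. RefSeq's table for GRCm38.p6 holds a promoter for 14 of the 20, and 4 are printed here, from a pair of leading rises and a pair of leading falls. Each line gives the 150 bases before the annotated start, read 5′ to 3′ on the gene's own strand, with 1 motif match in capitals. Where the table holds several starts for a gene, only the first entry was used. The windows of Nmrk2, Mylk4 and Ptgds lie inside the annotated span of their genes, so the annotated spans begin further upstream. The capitals are TATAAA, the TATA box, at position -46 in Nmrk2 and -32 in Ccl8, AAGGTCA, a site for orphan nuclear receptors, on the other strand at -145 in Mylk4, and TGACTCA, the AP-1 site, at -35 in Ptgds. Of the 9 motifs searched, GGGCGG, which 32.9% of the promoters taken from the table hold, also lies in the Nmrk2 window at -71 and is left in lower case. The 4 printed promoters each hold a match other than GGGCGG, which is not so for all 14. In the 250 bases searched, Cilp, Hopx and Pla2g5 hold none of the 9 motifs, and Thbs4, Lgals3 and Acot1 hold only GGGCGG. The windows are chr10:81202038-81202187 on the minus strand, chr11:82115035-82115184 on the plus strand, chr13:32783965-32784114 on the minus strand and chr2:25469750-25469899 on the minus strand, in the same order.
Nmrk2: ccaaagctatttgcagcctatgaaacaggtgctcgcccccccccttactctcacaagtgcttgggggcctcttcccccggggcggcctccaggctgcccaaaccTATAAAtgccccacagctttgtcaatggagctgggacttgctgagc
Ccl8: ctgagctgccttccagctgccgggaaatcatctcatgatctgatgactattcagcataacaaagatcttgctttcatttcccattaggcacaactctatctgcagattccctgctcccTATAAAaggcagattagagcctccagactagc
Mylk4: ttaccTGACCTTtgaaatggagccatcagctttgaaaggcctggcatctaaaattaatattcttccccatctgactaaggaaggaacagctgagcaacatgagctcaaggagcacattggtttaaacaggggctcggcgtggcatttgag
Ptgds: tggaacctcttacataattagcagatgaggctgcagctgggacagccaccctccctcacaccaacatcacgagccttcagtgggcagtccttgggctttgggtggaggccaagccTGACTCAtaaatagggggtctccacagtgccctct

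Among the 27025 promoters taken from that table, a single start for each gene, 3504 hold TATAAA, 4.05% hold AAGGTCA and 4.43% hold TGACTCA on either strand within 250 bases before the start. A match is a run of letters and no evidence of binding. Shares among the genes that rose or fell were not compared, because only 77.3% of the genes that rose at least 2-fold and 74.0% of those that fell at least 2-fold have a promoter in the table.

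With Y-linked genes left out, the largest rises were in secreted matrix proteins that were close to 0 in WT hearts. Thbs4, thrombospondin 4 of the injured heart's matrix (chromosome 13, 92751586 to 92794818), was at 121.63, 122.81 and 118.15 FPKM in KO hearts, against 1.65, 1.52 and 2.14 FPKM in WT hearts. Cilp, a matrix protein of cartilage and scar tissue, was at 107.4, 106.98 and 104.9 FPKM in KO hearts, against 1.32, 1.84 and 1.55 FPKM in WT hearts. The lowest KO library lay far above the highest WT library for both, and the KO means were 68.3 and 67.8 times the WT means. The fitted log2 differences were 5.47 ± 0.076 and 5.39 ± 0.0707 (SE, limma adjusted p = 3.2e-12 and 2.1e-12). Lgals3, the lectin galectin-3 made by macrophages, was at 168.23, 181.35 and 168.38 FPKM in KO hearts and at 4.43, 3.14 and 3.16 FPKM in WT hearts. Spp1, osteopontin, stood at 23.27, 26.3 and 25.24 FPKM in KO hearts and was under 1 FPKM in every WT library. Lgals3 and Spp1 were 48.3 and 47.6 times as high in KO as in WT hearts (log2 differences 5.26 ± 0.0932 and 4.09 ± 0.0756, SE). Spp1 entered the test only through the KO libraries, which fixed its direction. Serpinb1a, an intracellular inhibitor of neutrophil proteases, reached 64.55 to 70.48 FPKM in KO hearts, against 2.59 to 4.18 FPKM in WT hearts. Ccl8, a chemokine, reached 64.64 to 75.09 FPKM in KO hearts, against 3.28 to 4.17 FPKM in WT hearts.

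The other leading rises belong to muscle and to metabolism. Nmrk2, the muscle kinase that turns nicotinamide riboside into an NAD precursor, was at 124.45, 119.04 and 119.43 FPKM in KO hearts, against 5.01, 5.06 and 4.64 FPKM in WT hearts. Mthfd2, the folate enzyme of mitochondria that is normally found in growing cells, was at 54.16, 53.53 and 51.38 FPKM in KO hearts, against 2.15, 2.44 and 2.94 FPKM in WT hearts. The KO means were 24.7 and 21.1 times the WT means (limma adjusted p = 5.2e-13 and 3.13e-11). Bin1, amphiphysin 2, which shapes the T-tubules of heart muscle, was at 100.68, 103.75 and 100.52 FPKM in KO hearts and at 6.31, 5.24 and 6.19 FPKM in WT hearts, a 17.2-fold difference of means. Nppa, the atrial natriuretic peptide, was by far the most abundant of the leading rises, at 1876.64, 1847.31 and 1812.65 FPKM in KO hearts, against 112.13, 117.43 and 119.74 FPKM in WT hearts.

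Among the leading falls a ligand and a kinase were close to 0 in KO hearts. Efnb3, the membrane-bound ligand ephrin-B3 (chromosome 11), was at 0.13, 0.4 and 0.22 FPKM in KO hearts, against 48.28, 50.62 and 58.91 FPKM in WT hearts. Mylk4, a member of the myosin light chain kinase family, was at 0.73, 1.09 and 0.9 FPKM in KO hearts, against 48.32, 47.38 and 48.13 FPKM in WT hearts. WT means were 210.4 and 52.9 times the KO means, and the fitted log2 differences were -5.42 ± 0.0962 and -4.69 ± 0.0734 (SE, limma adjusted p = 1.51e-11 and 6.49e-12). Efnb3 entered the test only through the WT libraries, which fixed its direction. Ptgds, which makes prostaglandin D2, was at 26.44, 26.6 and 29.61 FPKM in KO hearts, against 622.99, 651.0 and 610.48 FPKM in WT hearts. Pla2g5, a secreted phospholipase, was at 1.62, 1.52 and 1.4 FPKM in KO hearts, against 26.5, 24.29 and 27.75 FPKM in WT hearts. No value of these 4 genes in a KO library came near its WT range.

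Hopx, a homeodomain protein without DNA binding that acts in heart muscle, was at 18.07, 18.19 and 15.5 FPKM in KO hearts, against 193.77, 215.21 and 205.16 FPKM in WT hearts. Myom2, a protein of the M-band that ties thick filaments together, was at 28.04, 27.99 and 28.05 FPKM in KO hearts, against 215.52, 215.8 and 210.45 FPKM in WT hearts. The KO means of both were lower than the WT means, by 11.9-fold and 7.63-fold. Acot1, a thioesterase of fatty acyl-CoA whose close copies could share reads with it, was at 3.41, 3.85 and 4.04 FPKM in KO hearts and at 34.62, 34.11 and 36.32 FPKM in WT hearts. Scgb1c1, a secretoglobin, was at 0.67, 2.52 and 1.91 FPKM in KO hearts and at 33.72, 34.44 and 30.47 FPKM in WT hearts, the widest spread among KO libraries of the 20 leading genes on the log2 scale. Eif3j2, a copy of a translation initiation factor subunit, was at 2.43, 2.83 and 3.6 FPKM in KO hearts, against 26.91, 24.07 and 26.8 FPKM in WT hearts, and reads could be split between it and its near copy.

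**Figure D2:**
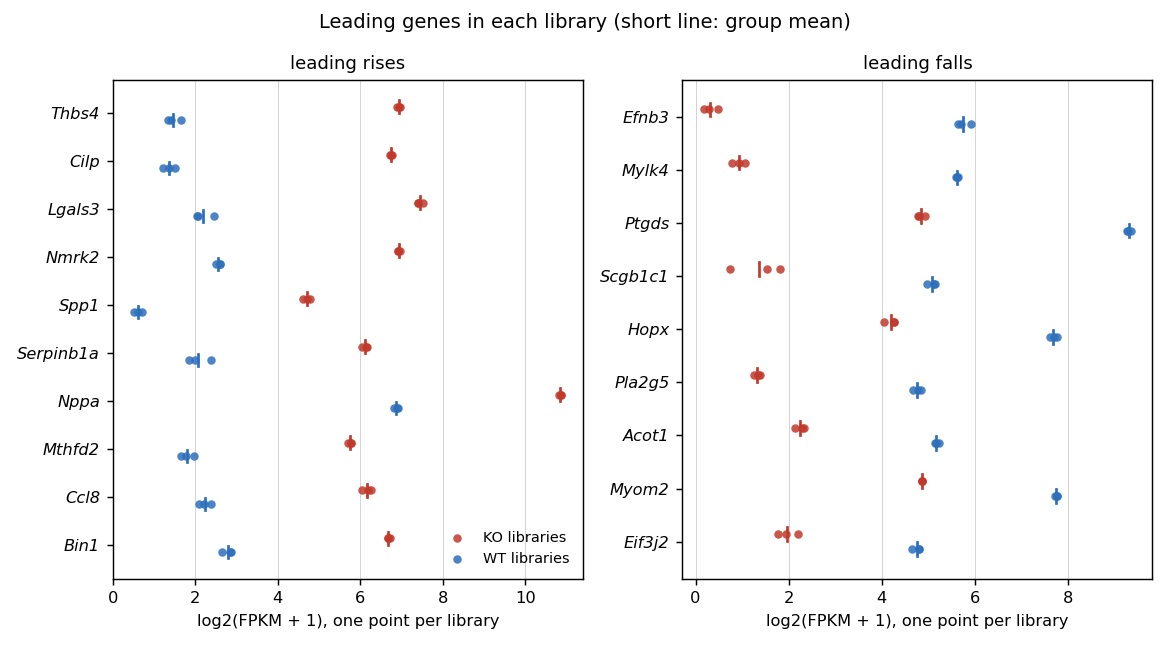
log2(FPKM + 1) of 19 of the 20 leading genes in each library, with leading rises on the left and leading falls on the right. Red points are the 3 KO libraries, blue points the 3 WT libraries, and short lines the group means. The KO and WT points of each gene do not overlap, which the choice of these genes required. The points of a group lie close together except for Scgb1c1 in KO hearts.

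Measured by level rather than by fold, the largest differences were in a gene of glycolysis and in genes of the contractile apparatus. Gapdh, the glyceraldehyde phosphate dehydrogenase of glycolysis that is often used as a standard, had the largest rise in FPKM, with 11231.94, 10870.43 and 10594.23 FPKM in KO hearts, against 4461.46, 4606.73 and 4545.63 FPKM in WT hearts. Ankrd1, a stress-responsive ankyrin repeat protein of the sarcomere, was at 3940.0 ± 14.8 FPKM in KO hearts and 638.1 ± 14.7 FPKM in WT hearts (SD, n = 3 each). Des, desmin, the intermediate filament of muscle, was at 2952.0 ± 40.4 FPKM in KO hearts and 752.7 ± 11.4 FPKM in WT hearts, and Acta1, skeletal actin, which fetal heart expresses, was at 2051.0 ± 22.2 FPKM in KO hearts and 211.4 ± 7.12 FPKM in WT hearts. Cst3, the protease inhibitor cystatin C, Pdlim5 of the Z-disc, the elongation factor Eef1a1, the sarcomere protein Mybpc3 and the cardiac actin Actc1 complete the 10 largest rises together with Nppa. Their KO means were 1.19 times (Actc1) to 3.27 times (Pdlim5) the WT means.

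The largest fall in FPKM was in Myl2, the regulatory myosin light chain of the ventricle, with 9497.33, 9756.71 and 9726.62 FPKM in KO hearts, against 23756.06, 22716.75 and 22059.93 FPKM in WT hearts. Tnni3, cardiac troponin I, was at 3061.0 ± 41.5 FPKM in KO hearts and 8193.0 ± 478.3 FPKM in WT hearts, and Myl3, the essential light chain of the ventricle, was at 4101.0 ± 85.4 FPKM in KO hearts and 7408.0 ± 187.7 FPKM in WT hearts. Pln, phospholamban, the brake on the calcium pump of the sarcoplasmic reticulum, was at 1953.0 ± 20.7 FPKM in KO hearts and 4006.0 ± 134.1 FPKM in WT hearts. Mb, the oxygen store myoglobin, fell by 0.30 on the log2 scale (limma adjusted p = 9.27e-06). The other members of this group are the globins Hbb-bs and Hba-a1, which have near-identical copies, Cox6a2, the muscle form of a cytochrome oxidase subunit, Usmg5, a small subunit of ATP synthase, and the predicted gene Gm20594. All 20 genes had groups that did not overlap.

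**Figure D3:**
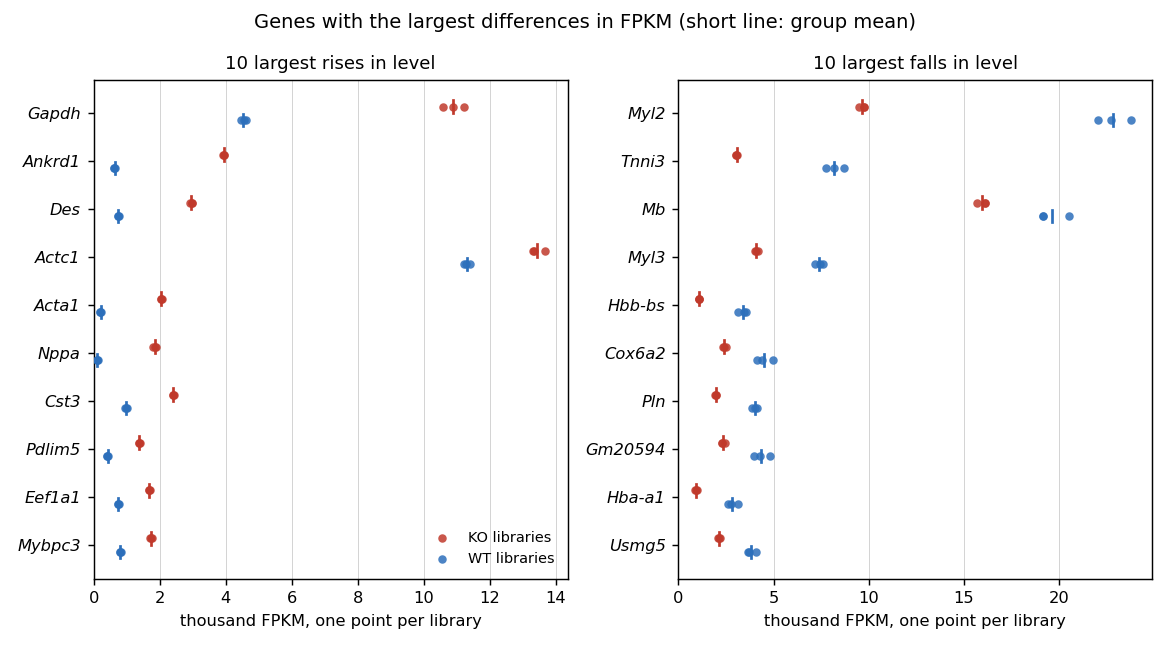
FPKM (axis in units of 1000) of the 10 genes with the largest rise (left) and the 10 with the largest fall (right) in mean FPKM, one point per library. Red points are KO libraries, blue points WT libraries, and short lines the group means. Gapdh lies between 10594.23 and 11231.94 FPKM in KO hearts and between 4461.46 and 4606.73 FPKM in WT hearts, and all 20 genes have groups that do not overlap.

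Some abundant genes hardly moved. The 5 with the smallest fitted difference among genes with a mean of at least 200 FPKM and an adjusted p over 0.5 included Popdc2, a membrane protein of heart muscle, Oxct1, which starts the breakdown of ketone bodies, and Mrpl12 of the mitochondrial ribosome. Popdc2 averaged 301.9 ± 3.17 FPKM in KO hearts and 301.9 ± 7.83 FPKM in WT hearts. Oxct1 averaged 462.9 ± 3.68 FPKM in KO hearts and 465.2 ± 18.96 FPKM in WT hearts.

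A further group of genes crossed the border between absence and expression. In 37 genes the mean was at least 5 FPKM in KO hearts and under 1 FPKM in WT hearts, and 3 of the 37 lie on the Y chromosome. They include Krt18, a keratin of simple epithelia, at 15.38, 16.62 and 15.13 FPKM in KO hearts and 0.62, 0.63 and 0.44 FPKM in WT hearts. Star, which brings cholesterol into mitochondria for steroid synthesis, was at 14.08, 13.58 and 14.22 FPKM in KO hearts and 0.78, 0.85 and 0.81 FPKM in WT hearts. Tnnt3, the troponin T of fast skeletal muscle, was at 8.71, 7.38 and 7.55 FPKM in KO hearts, and Tnfsf18, a cytokine of the tumour necrosis factor family, at 9.55, 9.86 and 10.21 FPKM, both near 0 in WT hearts. Other members were the matrix genes Fmod, Ltbp2, Lox and Tnc, and Hspa1a and Hspa1b, near-identical copies of the inducible heat shock protein. Most of the 37 passed the filter only through the KO libraries, so their direction was fixed by the test.

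Another 24 genes had a mean of at least 5 FPKM in WT hearts and under 1 FPKM in KO hearts. Scd4, a cardiac fatty acid desaturase with close copies, was at 0.17, 0.1 and 0.16 FPKM in KO hearts, against a mean of 16.2 ± 1.02 FPKM in WT hearts (SD, n = 3). Myh7b, a slow myosin heavy chain whose gene also carries a microRNA, was at 0.35, 0.38 and 0.48 FPKM in KO hearts, against 15.6, 14.51 and 13.71 FPKM in WT hearts. Gpr22, a receptor of heart and brain, was at 0.51, 0.59 and 0.49 FPKM in KO hearts, against 13.85, 14.1 and 14.99 FPKM in WT hearts. These 3 genes were under 1 FPKM in every KO library and above 10 FPKM in every WT library. Pfkfb1, which makes the activator of phosphofructokinase, Adra1a, the alpha-1A adrenergic receptor, the calcium channel Cacna1s of skeletal muscle and the growth factor Fgf16 of the heart were also in this group, with Efnb3 and Mylk4. Most of the 24 passed the filter only through the WT libraries, which likewise fixed their direction.

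Gene lists by function were read against the background of all genes, 38.2% called higher and 27.6% called lower, with a median log2 difference of 0.06. Since 65.8% of all genes were called, members called in both directions are no result about a list by themselves. Some members entered the test only through the KO libraries and could then only be higher, which held for 4 of the amino acid transporters and, sex chromosome genes apart, for at most 3 members of any other list. Sums and shares of FPKM run over every member in the table, tested or not. In the sarcomere the isoforms moved in opposite directions. Of 18 myosin chains and kinases tested, 8 were called higher and 6 lower (44.4% and 33.3%, near the shares over all genes, median log2 difference -0.04). Myl1, the light chain of fast skeletal and atrial muscle, was at 900.3, 902.83 and 909.21 FPKM in KO hearts, against 67.93, 63.75 and 70.93 FPKM in WT hearts. The 19 myosin list genes in the table together held 3.19% to 3.22% of all FPKM in KO hearts and 5.44% to 5.72% in WT hearts. The difference was -2.35 percentage points, and 0.0596 with the 10 most abundant genes left out of both the list sum and the library totals. Myl2, which had the largest fall in FPKM, was among the genes left out. Among 18 thin filament genes 11 were called higher and 5 lower (median 0.40). Tmod4, which caps actin filaments, fell to 3.46 ± 0.472 FPKM in KO hearts, against 21.3 ± 0.726 FPKM in WT hearts, and Tnnc1, cardiac troponin C, fell by 0.41 on the log2 scale.

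Of 14 thick filament, M-band and giant sarcomere genes 6 were called higher and 5 lower. These shares, 42.9% and 35.7%, lie near the 38.2% and 27.6% over all genes. Xirp2, an actin-binding repeat protein of the intercalated disc, was at 389.65, 374.08 and 385.92 FPKM in KO hearts, against 61.16, 60.88 and 57.11 FPKM in WT hearts. Myom1 rose by a log2 difference of 0.47, while its relative Myom2 fell as described above. In the Z-disc and costamere list 18 of 32 were called higher and 9 lower. Besides desmin, the small heat shock protein Cryab rose (log2 difference 0.38), while Fhl2, a LIM protein that binds titin, fell to 841.9 ± 13.3 FPKM in KO hearts, against 1457.0 ± 19.2 FPKM in WT hearts. Myot, myotilin, fell by 1.59 on the log2 scale. At the intercalated disc, which couples heart muscle cells end to end, 8 of 16 were called higher and 6 lower, none by 2-fold. Jup, plakoglobin, rose to 158.0 ± 9.6 FPKM in KO hearts, against 92.1 ± 1.36 FPKM in WT hearts, whereas N-cadherin, Cdh2, fell to 71.1 ± 1.82 FPKM in KO hearts, against 100.3 ± 2.63 FPKM in WT hearts.

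The cytoskeleton outside the sarcomere moved mostly upwards. Of 46 genes of the nonmuscle actin cytoskeleton 39 were called higher and 4 lower (84.8% and 8.7% of those tested, median log2 difference 0.77), and 15 rose at least 2-fold. The count of 39 did not change when any library was left out or under either scaling. Tmsb4x, the actin-binding thymosin beta 4, was at 1265.4, 1339.33 and 1313.09 FPKM in KO hearts, against 559.34, 561.77 and 582.92 FPKM in WT hearts. Pfn1, profilin 1, rose to 496.4 ± 7.49 FPKM in KO hearts, against 192.8 ± 19.3 FPKM in WT hearts, and the intermediate filament Nes, nestin, rose to 52.1 ± 1.22 FPKM in KO hearts, against 7.76 ± 0.431 FPKM in WT hearts. Gsn, gelsolin, an abundant actin-severing protein, went the other way and fell by 0.75 on the log2 scale. Among 38 tubulins and microtubule regulators 29 were called higher and 6 lower (median 0.50). Tuba1b rose to 332.7 ± 5.98 FPKM in KO hearts, against 191.9 ± 2.0 FPKM in WT hearts, while Tuba8 fell to 67.9 ± 0.526 FPKM in KO hearts, against 133.4 ± 4.24 FPKM in WT hearts.

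Annexins bind membranes in the presence of calcium. Of 9 annexins 7 were called higher and 1 lower (median 0.80). Anxa1, which restrains inflammation, was at 116.68, 122.56 and 120.9 FPKM in KO hearts, against 27.12, 26.57 and 28.87 FPKM in WT hearts. Anxa2 and Anxa7 were 2.04 and 2.25 times as high in KO as in WT hearts, and Anxa6, at 94.4 ± 1.87 FPKM in KO hearts and 97.9 ± 2.22 FPKM in WT hearts, was not called. Of 9 S100 proteins 5 were called higher and 2 lower. S100a4 was at 66.91, 66.42 and 64.01 FPKM in KO hearts, against 13.06, 15.38 and 14.78 FPKM in WT hearts, and S100a11 and S100a10 rose 2.49-fold and 2.45-fold. S100a1, the main S100 protein of heart muscle and an aid to calcium cycling, was at 1084.76, 1120.82 and 1107.46 FPKM in KO hearts, against 1963.14, 2132.72 and 1862.47 FPKM in WT hearts.

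Enzymes that act on the matrix were raised in most cases. Of 30 lysyl oxidase and collagen processing genes 20 were called higher and 3 lower (median 0.42). Sparc, a collagen-binding protein, was at 437.99, 443.63 and 433.98 FPKM in KO hearts, against 157.14, 156.23 and 151.53 FPKM in WT hearts. P4hb, a subunit of the enzyme that hydroxylates proline in collagen, rose 2.08-fold. Among 34 metalloproteinases and inhibitors 17 were called higher and 10 lower, and the inhibitors parted. Timp1 was at 68.53, 64.52 and 64.44 FPKM in KO hearts, against 4.32, 4.08 and 3.74 FPKM in WT hearts, while Timp4, the inhibitor typical of heart, was at 7.09, 7.82 and 6.89 FPKM in KO hearts, against 39.83, 39.47 and 34.72 FPKM in WT hearts. Timp1 rose 16.3-fold, and Timp4 was 5.23-fold lower in KO than in WT hearts. Of 32 clotting, fibrinolysis and serpin genes 24 were called higher and 6 lower (median 0.72), but Tfpi, the inhibitor of the tissue factor pathway, fell to 13.95 ± 0.441 FPKM in KO hearts, against 57.6 ± 2.67 FPKM in WT hearts. In the list of 29 integrins, laminins and basement membrane genes 15 were called higher and 7 lower, with Itga7, the laminin receptor of muscle, 1.91 times as high in KO as in WT hearts.

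Signalling lists held both directions. Of 26 Hippo pathway genes and YAP targets 15 were called higher and 4 lower. Ctgf, a secreted matrix protein and a classical YAP target, was at 359.59, 358.11 and 357.81 FPKM in KO hearts, against 25.34, 24.54 and 24.97 FPKM in WT hearts, a 14.4-fold rise (limma adjusted p = 1.59e-13). F3, tissue factor, fell to 8.35 ± 1.254 FPKM in KO hearts, against 17.95 ± 0.175 FPKM in WT hearts. Among 41 genes of TGF-beta, activin and BMP signalling 22 were called higher and 12 lower, and 9 rose and 0 fell at least 2-fold. The ligand Tgfb1 was at 37.93, 34.13 and 32.54 FPKM in KO hearts, against 14.72, 15.73 and 15.85 FPKM in WT hearts, and Fstl1, a secreted follistatin relative, rose 2.75-fold. Of 59 growth factor genes 23 were called higher and 22 lower, close to an even split. Igfbp7, which binds insulin-like growth factors, rose 2.11-fold, whereas the vessel growth factors Vegfb and Angpt1 fell, Angpt1 to 2.54, 2.89 and 2.24 FPKM in KO hearts, against 17.23, 18.45 and 18.18 FPKM in WT hearts.

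Genes of nerve and hormone signalling fell more often than they rose. Of 46 genes of adrenergic, muscarinic and related signalling 11 were called higher and 22 lower (median -0.14). Adra1b, the alpha-1B adrenergic receptor, was at 1.52, 1.33 and 1.06 FPKM in KO hearts, against 14.65, 15.53 and 14.27 FPKM in WT hearts, and Adra1a was in the group that fell below 1 FPKM. Gnai2, an inhibitory G protein, and the adenylyl cyclase Adcy7 rose, Adcy7 to 8.95 ± 0.403 FPKM in KO hearts, against 2.95 ± 0.198 FPKM in WT hearts. Among 11 ephrins and Eph receptors 0 were called higher and 8 were called lower (median -0.30), a count of 6 to 8 when a library was left out, with Efnb3 first and Efna1, at 20.7 ± 1.78 FPKM in KO hearts and 25.8 ± 0.94 FPKM in WT hearts, the most abundant of the others. Of 23 genes of gp130 cytokines and JAK-STAT signalling 11 were called higher and 7 lower. Cish, an inhibitor of STAT5 signalling, fell to 9.37 ± 0.865 FPKM in KO hearts, against 41.4 ± 0.628 FPKM in WT hearts. In the prostaglandin and leukotriene list 15 of 28 were called higher and 10 lower, but the fall of Ptgds outweighed the rest, so that the summed FPKM of the list was 568.2 to 587.6 in KO hearts, against 1223.0 to 1246.0 in WT hearts. Hpgd, which breaks prostaglandins down, and Alox5ap, which serves leukotriene synthesis, rose 3.92-fold and 3.42-fold.

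The 43 cardiac transcription factors tested leaned downwards, with 14 called higher and 23 lower (median -0.20). Apart from Hopx the changes of the abundant factors were modest. Nkx2-5, a core factor of heart muscle, was at 64.65, 59.96 and 59.44 FPKM in KO hearts, against 43.21, 43.28 and 41.44 FPKM in WT hearts. Mef2d rose and Mef2a fell, by log2 differences of 0.46 and -0.33. Rbfox1, a splicing regulator of muscle and brain, fell to 1.63 ± 0.127 FPKM in KO hearts, against 17.03 ± 1.33 FPKM in WT hearts. In its list of 37 splicing regulators 15 were called higher and 7 lower, and the lower count was 12 under both scalings. Among 23 histone deacetylase and NCOR complex genes 9 were called higher and 7 lower. Tbl1x, a core subunit of the NCOR complex encoded on the X chromosome, rose to 20.6 ± 0.235 FPKM in KO hearts, against 11.4 ± 0.33 FPKM in WT hearts. Of 22 clock genes 8 were called higher and 9 lower. Dbp and Hlf, output factors of the clock, fell, Dbp to 28.0 ± 0.191 FPKM in KO hearts, against 52.6 ± 3.87 FPKM in WT hearts, and Nfil3, which binds the same DNA sites, rose 1.85-fold.

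Protein synthesis and turnover changed by small steps in many genes. Of 80 cytosolic ribosomal proteins 61 were called higher and 2 lower (median log2 difference 0.25), and 48 to 50 were called higher under the other scalings. No member rose 2-fold, and Rpl3 came closest, with 300.02, 312.61 and 315.58 FPKM in KO hearts, against 163.1, 156.78 and 158.43 FPKM in WT hearts. Its muscle-specific relative Rpl3l was at 110.54, 109.18 and 105.71 FPKM in KO hearts, against 218.64, 230.19 and 212.71 FPKM in WT hearts. The pair moved in opposite directions with no overlap of the groups. The 78 mitochondrial ribosomal proteins moved the other way, with 13 called higher and 38 lower (median -0.14), and the higher count was 7 and 8 under the other scalings. Of 37 proteasome genes 23 were called higher and 2 lower, and 15 were called higher after median centring. Psmd11, a subunit of the regulatory particle, rose 1.72-fold. Of 39 aminoacyl-tRNA synthetases 17 were called higher and 13 lower (43.6% and 33.3%, near the shares over all genes). Gars and Nars, which charge glycine and asparagine tRNA, rose 2.47-fold and 2.1-fold, and Cars2 of mitochondria fell to 17.3 ± 1.55 FPKM in KO hearts, against 31.7 ± 1.6 FPKM in WT hearts.

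Lysosomal genes rose broadly, with 33 of 50 called higher and 11 lower (median log2 difference 0.58), and 9 rose and 0 fell at least 2-fold. Ctss, a cathepsin of macrophages, was at 108.3, 112.29 and 103.72 FPKM in KO hearts, against 15.34, 16.31 and 18.06 FPKM in WT hearts. Ctsd and Ctsb, cathepsins of most cells, rose 1.83-fold and 1.96-fold. Markers of macrophages, given below, rose in the same libraries, and their part in this result was not tested. Of 18 subunits of the vacuolar proton pump 11 were called higher and 2 lower. Of 41 autophagy genes 12 were called higher and 13 lower, but 7 higher and 17 lower after median centring and 8 higher and 16 lower under TMM scaling. Sqstm1, the cargo receptor p62, was at 911.59, 901.73 and 901.28 FPKM in KO hearts, against 225.89, 233.96 and 234.18 FPKM in WT hearts, while Pink1, the kinase that marks damaged mitochondria, was at 157.63, 152.71 and 149.66 FPKM in KO hearts, against 406.82, 417.0 and 391.57 FPKM in WT hearts. Of 22 muscle atrophy ligases and FOXO factors 5 were called higher and 14 lower (median -0.37), the same counts in each fit without a library. Asb11 and Asb2, muscle ubiquitin ligase subunits, fell to 54.2 ± 1.39 and 87.2 ± 2.64 FPKM in KO hearts, against 144.7 ± 1.14 and 202.9 ± 12.5 FPKM in WT hearts, and Fbxo40 rose 2.09-fold.

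Of 37 cytosolic heat shock genes 17 were called higher and 11 lower. Fkbp4, a partner of HSP90 in steroid receptor complexes, fell to 51.3 ± 0.947 FPKM in KO hearts, against 199.2 ± 4.23 FPKM in WT hearts, and Hspb7, a small heat shock protein of the heart, rose 1.57-fold. Among 54 genes of apoptosis and p53 targets 32 were called higher and 11 lower (median 0.31). Cdkn1a, the cell cycle inhibitor p21, was at 91.86, 93.48 and 91.48 FPKM in KO hearts, against 18.65, 20.27 and 17.75 FPKM in WT hearts, and Endog, a nuclease of mitochondria, fell to 27.5 ± 0.882 FPKM in KO hearts, against 61.3 ± 3.72 FPKM in WT hearts.

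**Figure D4:**
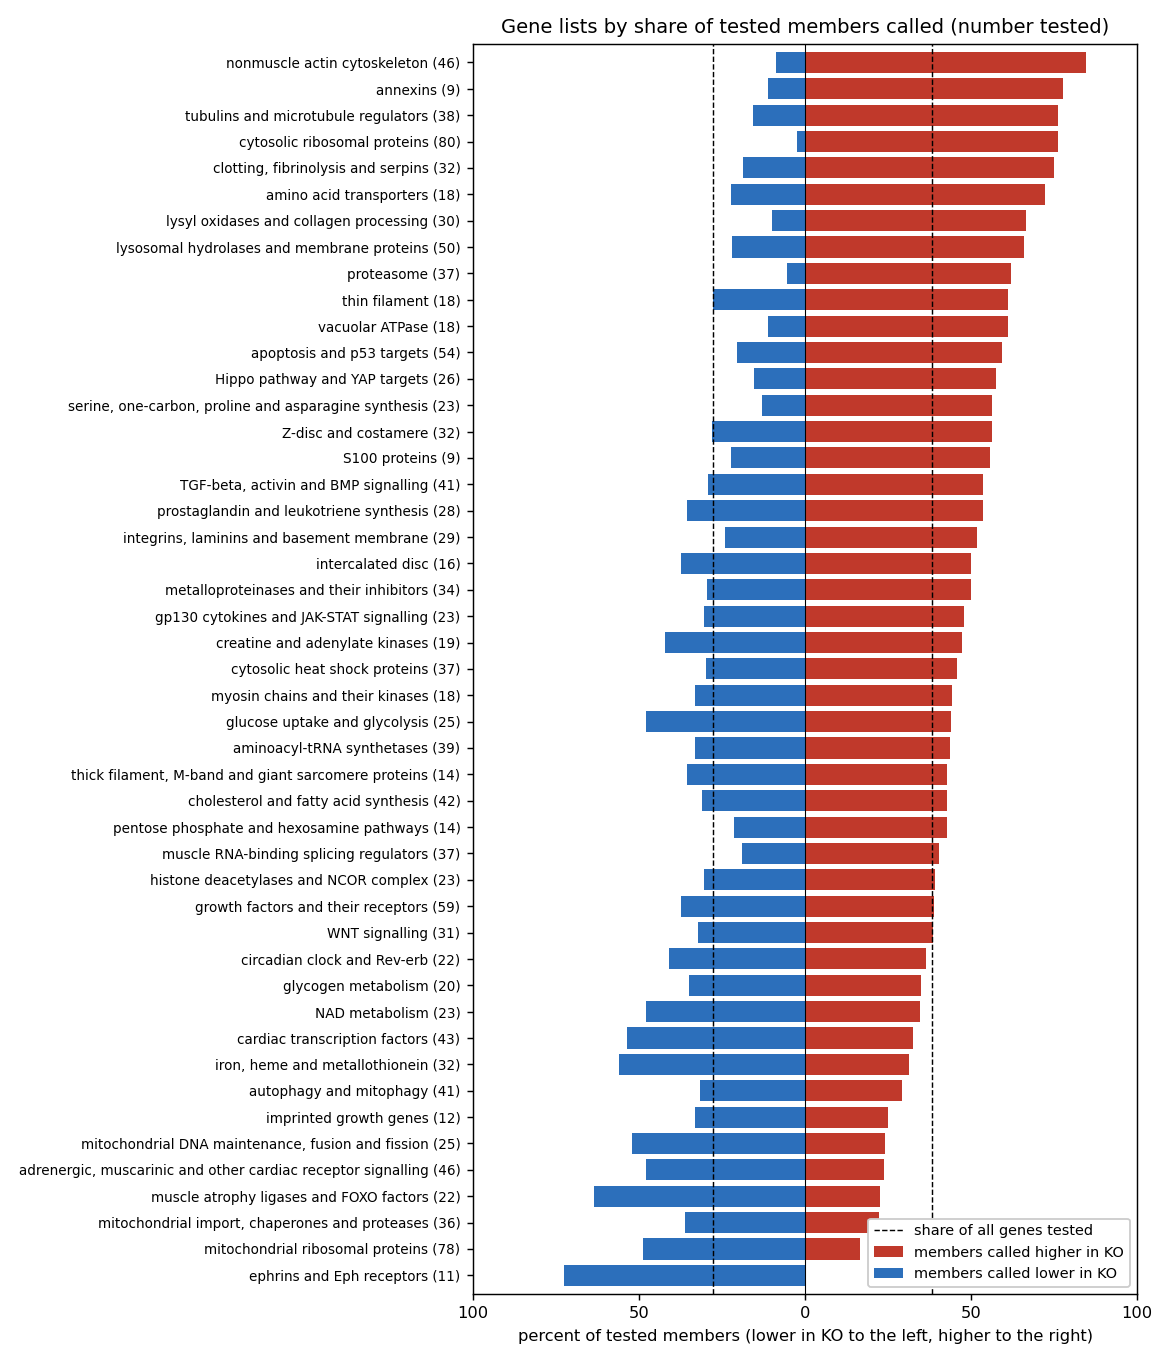
Percent of the tested members of each gene list that were called lower in KO hearts (blue, to the left) and higher in KO hearts (red, to the right), with the number tested in brackets. Dashed lines mark the same shares over all genes tested, 27.6% lower and 38.2% higher. The nonmuscle actin cytoskeleton is at the top with 84.8% higher, and the ephrins and Eph receptors are at the bottom with 0 higher and 72.7% lower.

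Glycolysis did not move as a block. Of 25 genes of glucose uptake and glycolysis 11 were called higher and 12 lower (median -0.07), yet the list held 3.39% to 3.51% of all FPKM in KO hearts and 2.18% to 2.26% in WT hearts, most of it through Gapdh. Without the 10 most abundant genes in the list sum and the totals, the difference was 0.128 percentage points, against 1.23 before. Gapdh was among the genes left out. Eno3, the muscle enolase, rose to 1902.0 ± 37.9 FPKM in KO hearts, against 1030.0 ± 21.4 FPKM in WT hearts, and Slc2a1, the glucose transporter of the fetal heart, to 19.01 ± 1.13 FPKM in KO hearts, against 6.79 ± 0.287 FPKM in WT hearts. Ldhb, the heart form of lactate dehydrogenase, fell to 1123.0 ± 14.2 FPKM in KO hearts, against 1929.0 ± 49.0 FPKM in WT hearts. Of 20 glycogen genes 7 were called higher and 7 lower, and of 14 pentose phosphate and hexosamine genes 6 were called higher and 3 lower, among them G6pdx, the entry enzyme of the pentose phosphate pathway, which rose 2.4-fold.

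The most abundant creatine kinases fell. Ckm, the muscle creatine kinase, was at 798.94, 805.39 and 795.84 FPKM in KO hearts, against 1860.42, 2007.12 and 1789.79 FPKM in WT hearts, and Ckmt2 of mitochondria fell to 1389.0 ± 11.6 FPKM in KO hearts, against 2252.0 ± 19.9 FPKM in WT hearts. The creatine transporter Slc6a8 rose 1.76-fold. In this list 9 of 19 were called higher and 8 lower. NAD metabolism had 8 of 23 called higher and 11 lower. Beside the rise of Nmrk2, Nnt, which makes NADPH in mitochondria, was at 79.05, 77.31 and 78.42 FPKM in KO hearts, against 252.32, 252.43 and 253.41 FPKM in WT hearts, and Nampt, which recycles nicotinamide, fell by 0.46 on the log2 scale. Of 23 genes of serine, one-carbon, proline and asparagine synthesis 13 were called higher and 3 lower, and of 18 amino acid transporters 13 were called higher and 4 lower, a higher count that includes 4 members tested only through the KO libraries and was 8 when any KO library was left out. Slc7a5, which carries large neutral amino acids, was at 9.32, 9.53 and 9.88 FPKM in KO hearts, against 1.86, 1.92 and 1.75 FPKM in WT hearts.

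Mitochondrial upkeep leaned downwards. Of 25 genes of mitochondrial DNA maintenance, fusion and fission 6 were called higher and 13 lower (median -0.20), and the higher count was 2 and 3 under the other scalings. Polg, the mitochondrial DNA polymerase, fell to 11.2 ± 0.843 FPKM in KO hearts, against 18.1 ± 0.775 FPKM in WT hearts. Of 36 import, chaperone and protease genes 8 were called higher and 13 lower, and 5 were called higher and 17 lower under either of the other scalings. The protease Lonp1 rose 1.73-fold. Iron and heme genes fell more often than they rose, with 10 of 32 called higher and 18 lower (median -0.27). Within that list the metallothionein Mt2, which has close copies, was at 463.66, 498.77 and 519.85 FPKM in KO hearts, against 60.45, 54.77 and 52.14 FPKM in WT hearts, and Ftl1, the ferritin light chain, rose 2.79-fold. In the list of cholesterol and fatty acid synthesis 18 of 42 were called higher and 13 lower, with Fads3 rising 1.76-fold and Acacb, an acetyl-CoA carboxylase that restrains fatty acid oxidation, 1.44-fold lower in KO than in WT hearts. The balance of this list turned with the scaling, to 13 higher and 19 lower after median centring and 15 higher and 18 lower under TMM scaling. Of 31 genes of WNT signalling 12 were called higher and 10 lower, a lower count of 6 without KO library 3 and without WT library 1 or 3. Of 12 imprinted growth genes 3 were called higher and 4 lower, and the lower count was 2 when any WT library was left out.

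Markers of the heart's cell types were compared in the same fit. The labelled tissue was checked against its defining markers, and the 14 heart muscle genes held 9.89% to 10.1% of all FPKM in KO hearts and 10.1% to 10.3% in WT hearts. Of these genes 4 were called higher (2 under either scaling) and 7 lower. Summed levels of lung, liver and thymus markers were between 0.02 and 5.2 FPKM in KO hearts and between 0.0 and 3.94 FPKM in WT hearts, and those of skeletal muscle markers were 13.25 to 14.53 FPKM in KO hearts and 8.16 to 9.34 FPKM in WT hearts.

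Genes that tell the chambers apart moved in a pattern of their own. Of 8 ventricular markers 0 were called higher and 7 lower (median log2 difference -0.91), with Irx3, at 10.2 ± 0.503 FPKM in KO hearts and 9.17 ± 0.35 FPKM in WT hearts, the exception. Kcnip2, a subunit of the transient potassium current, was at 34.86, 35.97 and 33.45 FPKM in KO hearts, against 90.99, 90.88 and 90.54 FPKM in WT hearts, and Irx4, a ventricular transcription factor, was at 8.6, 8.74 and 8.17 FPKM in KO hearts, against 17.53, 18.17 and 17.07 FPKM in WT hearts. Of 11 atrial markers 5 were called higher and 4 lower. Myl4, the atrial essential light chain, was at 76.53, 78.4 and 82.71 FPKM in KO hearts, against 8.84, 10.1 and 8.1 FPKM in WT hearts, and Kcnj5, a potassium channel subunit of the atrium, was at 4.31, 4.53 and 4.88 FPKM in KO hearts, against 16.9, 16.69 and 16.98 FPKM in WT hearts. Atrial markers thus did not move together, and the sources used here do not say how much atrial tissue each library held.

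**Figure D5:**
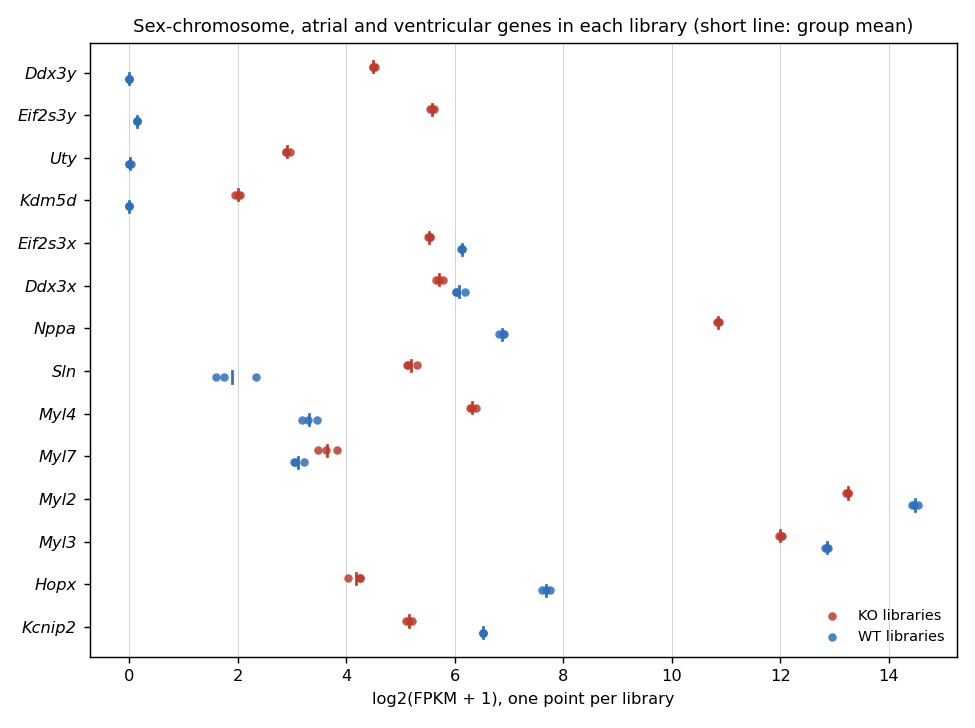
log2(FPKM + 1) in each library of 6 sex chromosome genes, 4 atrial genes (Nppa, Sln, Myl4, Myl7) and 4 ventricular genes (Myl2, Myl3, Hopx, Kcnip2). Red points are KO libraries, blue points WT libraries, and short lines the group means. The Y-linked genes lie at or near 0 in WT libraries only, the 4 ventricular genes are lower and the 4 atrial genes shown are higher in KO than in WT libraries. The genes shown are a part of each list. Of 11 atrial markers tested 5 were called higher and 4 lower, and of 8 ventricular markers 0 were called higher and 7 lower.

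Fibroblast markers rose with the matrix genes. Of 11 fibroblast markers 8 were called higher and 2 lower (median 0.90). Col1a1, the main collagen chain, was at 106.05, 100.9 and 102.03 FPKM in KO hearts, against 19.59, 19.67 and 19.84 FPKM in WT hearts, whereas Pdgfra, the receptor that marks fibroblasts, was at 10.96 ± 0.673 FPKM in KO hearts and 10.6 ± 0.592 FPKM in WT hearts and was not called, and Tcf21, a fibroblast transcription factor, was lower in KO hearts. Of 12 markers of activated fibroblasts 10 were called higher and 0 lower (median 1.83), 3 of them tested only through the KO libraries. Postn, periostin, was at 174.86, 177.36 and 177.52 FPKM in KO hearts, against 13.86, 12.85 and 14.19 FPKM in WT hearts. The summed level of the activated fibroblast list was 704.1 to 717.4 FPKM in KO hearts and 116.3 to 120.7 FPKM in WT hearts. That sum includes the leading rises Thbs4 and Cilp, with KO means of 120.9 and 106.4 FPKM. Among 8 smooth muscle markers 5 were called higher and 1 lower, but Myh11, the defining myosin of smooth muscle, was at 3.52 ± 0.0513 FPKM in KO hearts and 4.07 ± 0.345 FPKM in WT hearts and was not called. The list also holds genes that are not particular to smooth muscle. Desmin, with a KO mean of 2952.0 FPKM, made up most of its sum of 3217.0 to 3295.0 FPKM in KO hearts, and Acta2 is also in the activated fibroblast list.

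Macrophage markers rose in both lists. Of 10 markers of resident macrophages 8 were called higher and 1 lower (median 1.09), and of 10 markers of infiltrating monocytes and macrophages 9 were called higher and 0 lower (median 2.04), 2 of them tested only through the KO libraries. Ccr2, the chemokine receptor of recruited monocytes, was at 9.82, 9.96 and 11.76 FPKM in KO hearts, against 1.8, 1.94 and 2.55 FPKM in WT hearts, and Trem2, a receptor of lipid-handling macrophages, was at 22.88, 23.99 and 22.35 FPKM in KO hearts, against 3.17, 2.03 and 2.1 FPKM in WT hearts. The summed level of the infiltrating list was 297.0 to 315.3 FPKM in KO hearts and 24.06 to 27.17 FPKM in WT hearts. That sum includes the leading rises Lgals3 and Spp1, with KO means of 172.7 and 24.94 FPKM. Neutrophil, lymphocyte, dendritic and mast cell markers were low in both groups, at summed levels of 6.71 to 23.6 FPKM in KO hearts and 4.9 to 18.51 FPKM in WT hearts. Within each of these lists except the neutrophil list, every KO sum lay above every WT sum. Dendritic cell markers, for example, summed to 13.48 to 14.76 FPKM in KO hearts and 8.69 to 9.8 FPKM in WT hearts. The lysosomal, annexin, S100 and actin cytoskeleton lists hold genes that macrophages and fibroblasts also express, and the part of these cells in those counts was not tested.

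Vascular endothelial and erythroid markers mostly fell. Of 14 vascular endothelial markers 2 were called higher and 11 lower (median -0.27), with Aqp1, a water channel, at 59.52, 62.69 and 63.27 FPKM in KO hearts, against 138.12, 137.84 and 145.47 FPKM in WT hearts. Of 10 pericyte markers 3 were called higher and 5 lower. Lymphatic markers leaned the other way, with 4 of 6 called higher and 1 lower, and the 5 endocardial markers had 2 called in each direction. All 7 erythroid genes tested were called lower (median -1.61), and the summed level of the 10 erythroid genes in the table was 2707.0 to 2844.0 FPKM in KO hearts and 8002.0 to 9326.0 FPKM in WT hearts. Of 2 platelet markers tested 1 was called higher and 1 lower. The platelet list summed to 111.7 to 115.1 FPKM in KO hearts, against 38.51 to 48.34 FPKM in WT hearts. Among 5 Schwann cell and neuronal genes Uchl1, a ubiquitin hydrolase of neurons, was at 106.06, 105.76 and 103.85 FPKM in KO hearts, against 11.44, 9.57 and 10.59 FPKM in WT hearts, while Cdh19 and Dbh fell.

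The leading genes were set beside the NS-DADm experiment, whose hearts carry the HDAC3 that the labels call inactive. The tables were normalized separately, so levels are compared only within an experiment. Hdac3 RNA was at 30.57, 28.98 and 29.98 FPKM in NS-DADm hearts, against 32.05, 29.02 and 28.21 FPKM in their WT hearts. In that experiment 315 of 11705 genes (2.69%) were called. Of the 19 leading genes that passed its filter 5 were called, among them Mthfd2, Efnb3, Pla2g5 and Myom2, each in the direction seen in KO hearts. Except for Efnb3 and Scgb1c1, the standard errors of these 19 genes were larger than in the KO experiment. They were 0.582 against 0.0932 for Lgals3 and 0.185 against 0.076 for Thbs4. Fewer calls in the NS-DADm experiment thus do not by themselves mean smaller effects. Efnb3 was at 18.21, 20.5 and 16.11 FPKM in NS-DADm hearts, against 38.57, 41.37 and 42.18 FPKM in their WT hearts, a log2 difference of -1.12, against -5.42 in KO hearts. Mylk4, near 1 FPKM in KO hearts, was at 83.0, 104.53 and 80.17 FPKM in NS-DADm hearts and 76.37, 77.16 and 83.93 FPKM in their WT hearts. The difference between the effects, over all 12 libraries, passed the threshold in 19 of the 20 leading genes (45.9% of all genes tested passed), but these genes were chosen for their KO effect, which is a term of that difference, so the count supports nothing about them. Nppa did not pass (limma adjusted p = 0.171), and it ranged between 369.76 and 4203.68 FPKM in NS-DADm hearts and between 243.31 and 2728.12 FPKM in their WT hearts.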

How the data were processed

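Total RNA of hearts was sequenced on an MGISEQ-2000, and the reads were filtered for adapters with SOAPnuke, per the labels' protocols. The submitters' processing notes name HISAT2, Bowtie2, RSEM, DESeq2 and GRCm38.p6, with no order. The authors deposited FPKM values per gene, normalized to transcript length and library total, so no count test was run. The authors' deposited table also holds q-values and a signed fold score (the KO to WT ratio, or minus its inverse when below 1), used only where named. Of 17076 genes in the KO table, 24 with symbols turned into dates, 7 numeric entries and 2 repeated entries were left out, and 3 columns of per-sample values that matched no label were not used. In the NS-DADm table unlisted values were taken as 0. Genes with at least 1 FPKM in at least 3 libraries were tested on log2(FPKM + 1) with limma (trend and robust variance) and Benjamini-Hochberg adjustment over all 11810 genes, at an adjusted p under 0.05. A pseudocount of 1 understates the change of low genes. The fit was tested on simulated data. Shares of FPKM were compared with a two-sided exact permutation test, whose smallest p for 3 against 3 is 0.1. The depth is unknown from FPKM, so no counting interval is given. Other pseudocounts, filters, scalings, fits without 1 library and a replicate block were tried.

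The members and gene lists were chosen with earlier results of these data known. Genes were named by a rule. It took Hdac3, the 10 largest rises and falls with groups that did not overlap, and the largest changes in level. Genes crossing from under 1 to at least 5 FPKM, 5 steady genes and, in each list, the most abundant called members and the largest changes were added. Some genes that the rule names are not reported here. Promoters come from RefSeq (GRCm38.p6).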

Additional observations from a re-analysis of the deposited data

Results flagged for a closer look

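The KO effect, KO minus its WT, was set against the NS-DADm effect, NS-DADm minus its WT, with a test of the difference over all 12 libraries, and 45.9% of all genes tested passed it. Of the leading genes, 19 and Hdac3 passed, and values are given for 18 of the 19. The leading genes were chosen for the size of the KO effect, which is a term of this difference, so large differences follow from the choice and are given as a description. The difference of effects, as log2, was 5.44 for Thbs4, 5.14 for Cilp, 4.5 for Nmrk2, 4.15 for Lgals3, 4.14 for Serpinb1a, 4.06 for Spp1, 3.66 for Bin1, 2.94 for Mthfd2 and 2.57 for Ccl8. It was -4.85 for Mylk4, -4.3 for Efnb3, -4.01 for Ptgds, -3.17 for Hopx, -2.97 for Scgb1c1, -2.84 for Acot1 and -2.83 for Eif3j2. It was -2.57 for Pla2g5, -2.42 for Myom2 and -1.72 for Hdac3. Within the KO experiment sex and genotype cannot be told apart.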

How the results depend on the processing

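The number of genes called was 7775, and between 5907 (at least 5 FPKM) and 8502 (no filter) under the alternatives tried, including 6814 to 7352 without 1 library. With a pseudocount of 5 the genes at least 2-fold higher fell to 341 from 814 and those lower to 174 from 384, the only comparison-wide counts that moved by over 1.5 times. Without 1 library there were 643 to 835 higher and 309 to 388 lower. Median centring and TMM scaling shifted the median of all genes by -0.087 and -0.066 on the log2 scale, and gave 3640 higher and 4150 lower, and 3820 higher and 3922 lower. Hdac3 differed by -1.82 to -1.36 on the log2 scale over pseudocounts. With the replicate number as a replicate block 7724 genes were called, but deviations of same-numbered libraries correlated at only -0.056, -0.025 and 0.002, so the numbers share no more than a name. Of the counts by gene list, 106 of the recomputed values moved by over 1.5 times and 2050 did not. The 10 most abundant genes were also left out of both the list sums and the library totals. The difference in share, KO minus WT, then changed from -0.106 to 0.345 percentage points for the iron list. For the ventricular list it changed from -2.46 to -0.0463, with its member Myl2 among the genes left out. The causes of the shifts were otherwise not tested.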

Other observations

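Eif3j2 was at 24.07 to 26.91 FPKM in the WT hearts of the KO experiment and at 2.43 to 3.6 FPKM in KO hearts, while all 6 libraries of the NS-DADm experiment lay between 1.62 and 3.63 FPKM. The tables were normalized separately, and reads of the gene and its near copy could be split differently. Eif3j2 (43475418 to 43477836) and the leading rise Bin1 (32376618 to 32435740) lie on chromosome 18, as Hdac3 does. Whether their position near the targeted gene has a part in their changes was not tested.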
